A study of Mus musculus with 4 samples.

Results

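The genes of glycolysis and of the hypoxia response were examined in mouse bone marrow-derived macrophages exposed to extracellular vesicles (EVs), which are membrane-bound particles shed by cells. The 35 members were listed by symbol and found as the rows of the deposited raw table that carry those symbols, with the row holding most reads taken where a symbol was repeated. They are 35 of the 38087 genes in that table. Of these, 21 carry glucose to lactate and 14 belong to the response of cells to low oxygen. Macrophages came from C57BL/6 mice aged 6 to 8 weeks, whose bone marrow cells were grown for 5 to 7 days with 30% L929-conditioned medium, a source of macrophage growth factor. The exposed groups received, for 16 h, EVs of Beas2B, a human lung epithelial cell line, that had been transfected with miR-93 mimics (miR-93 EV), with miR-17 mimics (miR-17 EV) or with scrambled control RNA (control EV). The reference was macrophages that received no EVs (unexposed). Before library preparation the RNA of 4 biological replicates was combined, so each group is 1 library and no spread between cultures can be given. The labels name no dose of EVs and no measure of the mimics inside the macrophages.

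Glycolysis splits glucose into pyruvate in the cytosol. Macrophages that are activated by microbial products are known for turning pyruvate largely into lactate even when oxygen is present. The hypoxia-inducible factors link glycolysis to oxygen supply. Their alpha subunits are hydroxylated by the Egln prolyl hydroxylases when oxygen is available and are then degraded, and when they persist they bind a short DNA core, ACGTG or GCGTG, near genes for glucose uptake, glycolysis, mitophagy and angiogenesis. miR-17 and miR-93 belong to 1 microRNA family, whose members pair with target transcripts through the same seed.

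The mature sequences from RefSeq (GRCm38.p6) show that shared seed, which is bases 2 to 8 and is given in capitals, 5′ to 3′. The mimics' arm is not given in the labels, and the 5p arms are shown because they hold the family seed.
mmu-miR-17-5p: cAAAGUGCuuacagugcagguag
mmu-miR-93-5p: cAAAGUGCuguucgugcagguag
The reverse complement of the seed, GCACTTT, was found in the longest annotated 3′ UTR (GENCODE M21) of 6 of the 35 members, or 17.1%, against 14.8% of 12142 expressed genes with an annotated 3′ UTR. The 6 sites are shown because they are where a miR-17 family member could pair with a member of the set, with 8 bases on each side and the site in capitals (mm10, sense strand of the gene). Pfkp is a phosphofructokinase, Pfkfb3 makes the metabolite that stimulates phosphofructokinase, Egln3 is an oxygen-sensing hydroxylase, Vegfa is the main angiogenic growth factor, Mxi1 antagonizes MYC, and Higd1a is a protein of the inner mitochondrial membrane.
Pfkp, chr13:6581365-6581387, minus strand: atttatcaGCACTTTatggaagc
Pfkfb3, chr2:11473683-11473705, minus strand: gtttgtttGCACTTTtccttctt
Egln3, chr12:54180318-54180340, minus strand: tcttattcGCACTTTatgtatgc
Vegfa, chr17:46018682-46018704, minus strand: ttcgaggaGCACTTTgggtccgg
Mxi1, chr19:53375073-53375095, plus strand: atgtgcatGCACTTTgggcatca
Higd1a, chr9:121848632-121848654, minus strand: tgttaagtGCACTTTgaaatcca
A match is a description of the letters and not a measured site.

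Promoters from RefSeq (GRCm38.p6), from 250 bases before to 50 after an annotated start, were matched for 33 of the 35 members. Bnip3l and Ndrg1 had no entry, and Ero1l was matched under its RefSeq name Ero1a. The core ACGTG, searched on both strands, was present in 26 of the members' 47 promoters (55.3%), against 19.6% of 32851 promoters of all genes. The core GCGTG was present in 26 of 47 (55.3%), against 32.4% of all promoters. The palindrome CACGTG, which holds ACGTG on each strand and is also the letters of an E-box, was present in 4. The set was assembled from genes known for hypoxia responses, so these shares describe the choice of members. The promoters of 4 members called in the comparisons and of Ldha, which had the most matches, are shown with ACGTG, or its reverse complement CACGT, in capitals.
Bnip3, chr7:138909457-138909756, minus strand: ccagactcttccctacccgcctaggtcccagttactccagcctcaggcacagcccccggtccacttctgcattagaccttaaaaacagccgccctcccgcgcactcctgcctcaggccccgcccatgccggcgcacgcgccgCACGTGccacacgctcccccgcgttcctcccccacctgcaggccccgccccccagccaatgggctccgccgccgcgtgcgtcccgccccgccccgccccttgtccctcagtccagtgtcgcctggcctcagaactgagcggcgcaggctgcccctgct
Mxi1, chr19:53329163-53329462, plus strand: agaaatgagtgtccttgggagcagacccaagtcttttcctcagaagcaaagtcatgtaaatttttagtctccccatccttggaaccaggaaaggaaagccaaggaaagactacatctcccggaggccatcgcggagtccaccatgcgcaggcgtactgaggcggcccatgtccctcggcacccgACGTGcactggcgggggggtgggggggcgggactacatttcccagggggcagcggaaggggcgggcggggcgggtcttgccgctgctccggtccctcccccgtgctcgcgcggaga
Pgk1, chrX:106186850-106187149, plus strand: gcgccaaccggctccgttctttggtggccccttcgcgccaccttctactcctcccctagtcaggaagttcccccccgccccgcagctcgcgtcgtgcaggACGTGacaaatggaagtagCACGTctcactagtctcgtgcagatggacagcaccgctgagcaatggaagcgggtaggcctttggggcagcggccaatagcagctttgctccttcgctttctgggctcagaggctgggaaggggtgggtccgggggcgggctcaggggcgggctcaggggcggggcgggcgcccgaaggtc
Aldoa, chr7:126799205-126799504, minus strand: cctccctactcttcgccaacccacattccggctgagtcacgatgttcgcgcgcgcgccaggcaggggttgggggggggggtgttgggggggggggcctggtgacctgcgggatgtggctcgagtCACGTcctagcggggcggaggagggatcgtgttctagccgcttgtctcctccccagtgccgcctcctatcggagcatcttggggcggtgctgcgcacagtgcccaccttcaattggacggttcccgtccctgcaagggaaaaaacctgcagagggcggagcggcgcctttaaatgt
Ldha, chr7:46845554-46845853, plus strand: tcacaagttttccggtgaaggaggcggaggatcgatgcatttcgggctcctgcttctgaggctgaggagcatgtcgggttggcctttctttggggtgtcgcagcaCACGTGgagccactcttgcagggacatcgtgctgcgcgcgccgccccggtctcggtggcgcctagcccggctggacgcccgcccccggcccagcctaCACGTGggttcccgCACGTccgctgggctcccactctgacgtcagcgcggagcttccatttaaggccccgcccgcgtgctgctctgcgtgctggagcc
In the promoters shown, Bnip3 carries 1 palindrome, Ldha 2 palindromes and 1 further core, Pgk1 a core on each strand, and Aldoa and Mxi1 1 core each. A further annotated promoter of each of Aldoa, Mxi1 and Ldha held no ACGTG. Among called members, the promoters of Slc2a6 and Pdk1 also held none.

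Libraries held 17815250 to 22607247 reads in genes, with median-of-ratios size factors of 0.854 to 1.13 and a median of 96.4 to 114 aligned bases per read, the longest in control EV. All 7 macrophage markers found in the table were read in every library, at summed levels of 571596 normalized counts in miR-93 EV, 557197 in miR-17 EV, 688419 in control EV and 599286 in unexposed. Summed markers of epithelial cells were 9.49 to 14.2 normalized counts and those of erythroid cells 15.8 to 31.1. Neutrophil markers summed to 1109.9 in miR-93 EV, 1149 in miR-17 EV, 727 in control EV and 1003 in unexposed, with all 7 of 7 found, and osteoclast markers, 4 of 4 found, to 2041 in miR-93 EV, 1778 in miR-17 EV, 1418 in control EV and 2349 in unexposed. Over the libraries, dendritic cell markers summed to 265 to 312 normalized counts, B cell markers to 416 to 550, T and NK cell markers to 1656 to 2456, fibroblast markers to 71.4 to 99.1 and mast cell markers, of which Tpsb2 was at 0, to 59.7 to 87.8. Few genes set several of these sums. Lyz2 was most of the macrophage sum (596249 in control EV). In control EV, 4 of the 7 macrophage markers were above unexposed and 3 below. Il7r (1647 to 2444) was nearly all of the T and NK sum, with Cd3e, Cd3d, Cd3g and Nkg7 at 3.62 or less. S100a8 and Lcn2 were nearly all of the neutrophil sum, with S100a9, Ly6g, Mpo, Elane and Camp at 9.76 or less. Cd79b (386.5 to 530) was most of the B cell sum. The part of markers and read length in the results was not tested. In bulk RNA, fewer cells of a type and less RNA per cell cannot be told apart. Across all genes tested, the log2 ratio fell with GC content in the pairs of a mimic EV with unexposed (Spearman −0.312 in the pair of miR-93 EV and −0.295 in that of miR-17 EV) and with control EV (−0.252 in the pair of miR-93 EV, −0.236 in that of miR-17 EV). Between control EV and unexposed the coefficient was 0.0391.

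All 35 members were measured, at means of 38.7 (Adm) to 35989 (Pkm) normalized counts. They took 0.726% of the reads in miR-93 EV (95% Clopper-Pearson interval 0.723% to 0.730%), 0.746% in miR-17 EV (0.742% to 0.749%), 0.647% in control EV (0.643% to 0.651%) and 0.738% in unexposed (0.735% to 0.742%). The share was lowest in control EV, and the other 3 libraries lay close together. Abundant genes weigh most in this share, which counts the genes' own rows only. Aldoa, Pkm and Ndrg1 had 24071, 32139 and 9621 normalized counts in control EV, against 31503, 37923 and 13914 in unexposed. Of the 35 members, 18 had a log2 ratio of control EV to unexposed above 0 and 17 below, so the lower share does not describe the set gene by gene. These and all other intervals cover counting error only, since amplified reads that carry no molecular identifier cannot be counted as separate molecules and no library was repeated.

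Levels can be compared between genes only per length, here as reads per kb of merged exons per 1000000 reads in genes. Reads counted at near-identical copies of a gene are left out, and the order of levels is uncertain for that reason, as given further on. Aldoa, the aldolase that splits fructose bisphosphate (ENSMUSG00000030695, chr7:126795234-126800751, mm10), had the highest mean level among the genes' own rows at 492. Pkm, the pyruvate kinase that yields pyruvate (chr9:59656368-59679375), followed at 352, and Ldha, the subunit of lactate dehydrogenase that makes lactate (chr7:46841475-46855627), at 163. Pgam1, the phosphoglycerate mutase (chr19:41911871-41918664), had 133 and Hk3, the hexokinase typical of myeloid cells (chr13:55005985-55021385), had 131. Among the 3 hexokinases, Hk3 stood about an order of magnitude above Hk1 at 13.5 and Hk2 at 12.9. Of the glucose transporters, Slc2a1 had a level of 22.4 and Slc2a6 of 9.93. Vegfa had 10.1, and the lowest levels were those of Ankrd37 (1.57), Higd1a (1.42) and Adm (1.17), which rested on few reads. Adm encodes adrenomedullin, a vasodilator peptide.

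**Figure D1:**
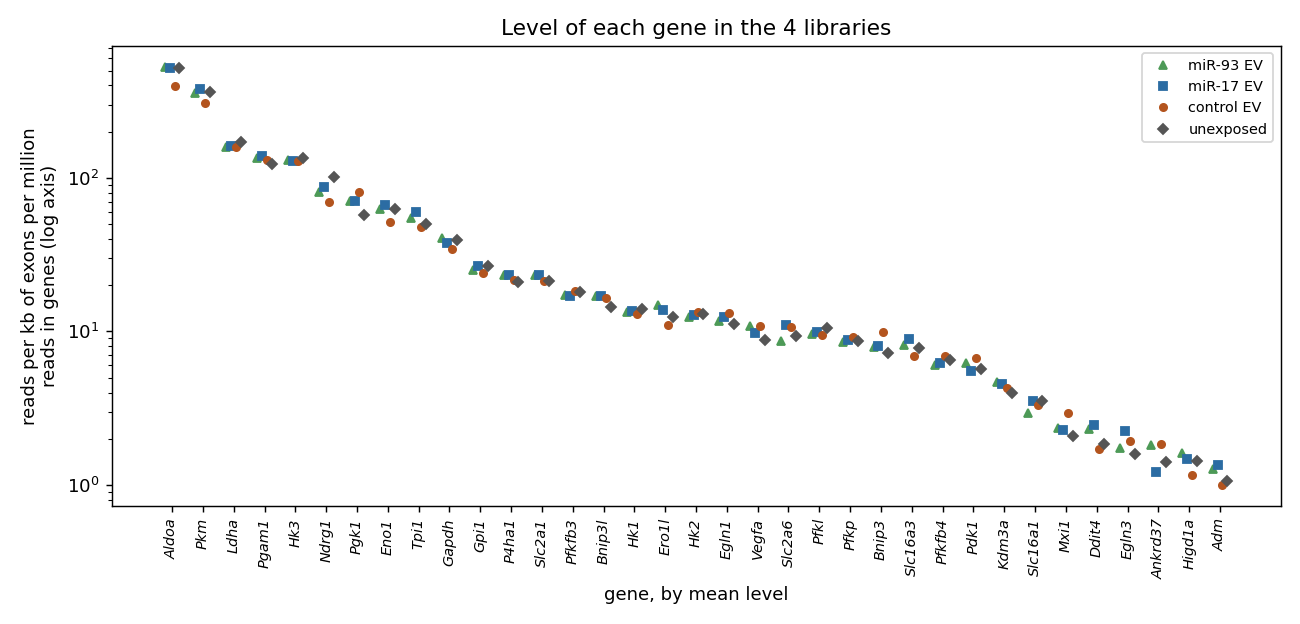
Level of each of the 35 genes, as reads per kb of merged exons per 1000000 reads in genes (log axis), in the 4 libraries; genes run by mean level from Aldoa (492) to Adm (1.17). Points of the same gene lie close together compared with the distance between genes. Reads counted at near-identical copies are not included.

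No member differed by 2-fold between any 2 of the 4 libraries. The ratio of a member's highest to its lowest normalized count was 1.06 (Slc2a1) to 1.60 (Ankrd37), and for 22 of 35 members the highest was less than 25% above the lowest. A difference was therefore called where the ratio was at least 25% above or 20% below 1, the 2 libraries had on average 20 normalized counts or more and the ratio's interval excluded 1. The interval is the 95% exact conditional (Clopper-Pearson) interval of the ratio of normalized counts. With 1 library per group this compares libraries and not conditions, and no p-value was computed. Over the 6 pairs, 19 of the 210 values were called (9.05%), in 10 of the 35 members, against 13.9% of 92281 values over all genes. Of the 19 calls, 15 (78.9%) were in the 3 pairs that include control EV, where 72.4% of the calls over all genes also fell. The pairs share libraries, so their values are not independent of each other. Control EV held the lowest value of 12 members (34.3%) and the highest of 13 (37.1%), against 32.1% and 35.5% of 15386 genes.

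In miR-93 EV against unexposed, 0 of 35 members were called higher and 1 was called lower, Ndrg1. The background over 15403 genes was 5.14% called higher and 4.71% called lower, with 0.656% past 2-fold in either direction. The members' median log2 ratio was 0.04, and that of all genes −0.01.

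In miR-17 EV against unexposed, 1 member was called higher, Egln3, and 0 were called lower. Among 15396 genes, 4.92% were called higher, 4.14% lower and 0.604% past 2-fold. The members' median log2 ratio was 0.04, against −0.01 for all genes.

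In control EV against unexposed, Pgk1, Bnip3 and Mxi1 were called higher and Aldoa and Ndrg1 were called lower. That is 3 and 2 of 35 members, where the background over 15294 genes was 8.26% higher, 8.72% lower and 1.41% past 2-fold. The members' median log2 ratio was 0.01, and that of all genes 0.00. The members' shares were near the background in each direction.

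**Figure D2:**
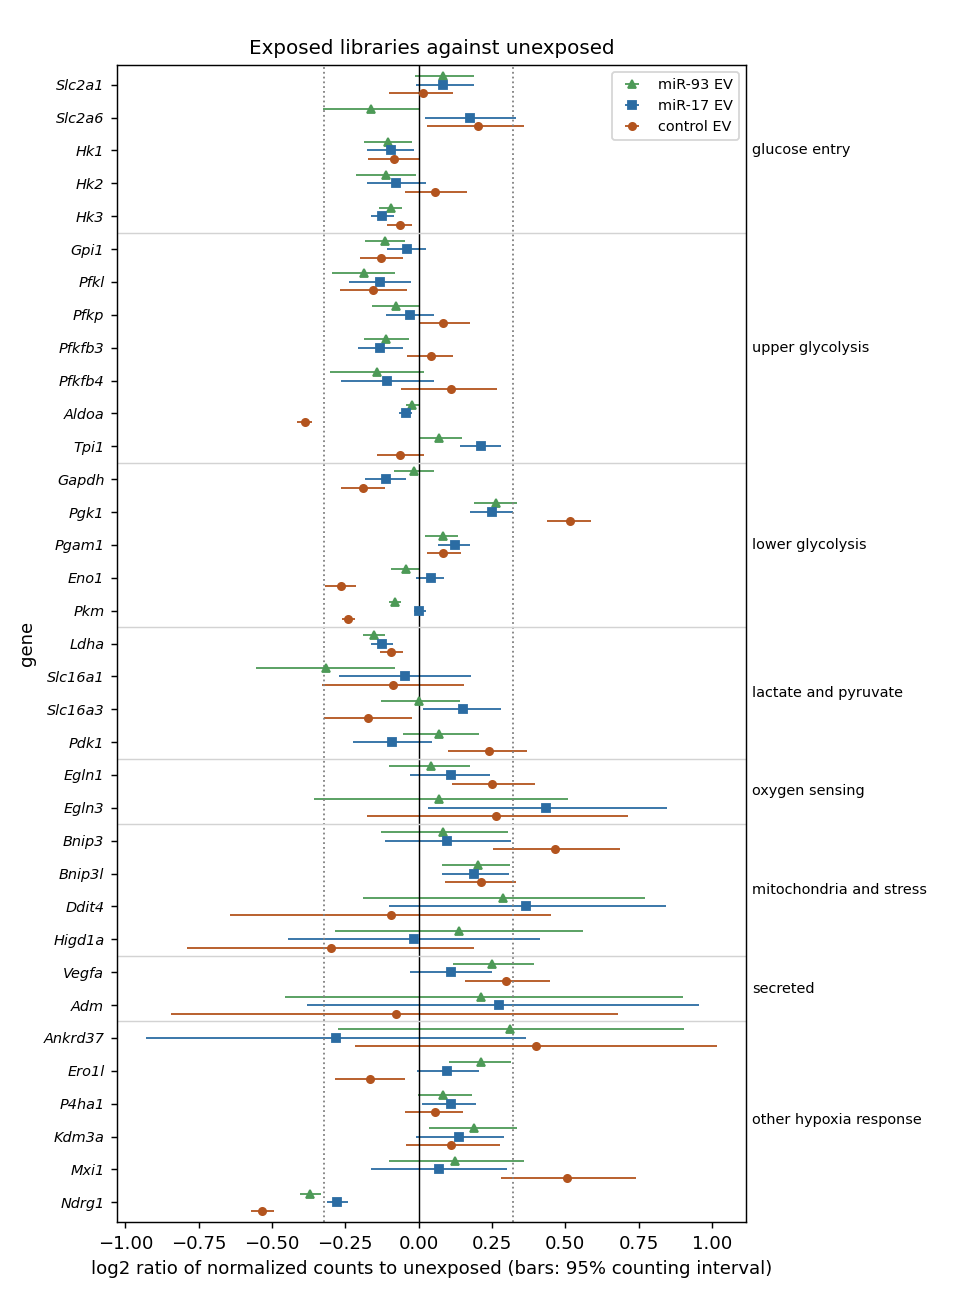
Log2 ratio of normalized counts of each gene to unexposed, for miR-93 EV, miR-17 EV and control EV; bars are 95% counting intervals, the dotted lines mark 25% higher and 20% lower, and genes are grouped by role. Pgk1, Bnip3 and Mxi1 lie beyond the upper line and Aldoa and Ndrg1 beyond the lower line for control EV, and most other points lie between the lines.

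Against control EV, miR-93 EV had 2 members called higher (Aldoa and Ero1l) and 3 called lower (Slc2a6, Bnip3 and Mxi1). Among 15361 genes, 12.2% were called higher, 9.56% lower and 1.58% past 2-fold. The median log2 ratio was −0.02 for the members and −0.02 for all genes.

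In miR-17 EV against control EV, 1 member was called higher (Aldoa) and 4 were called lower (Pdk1, Bnip3, Ankrd37 and Mxi1). The background over 15362 genes was 11.9% higher, 10.1% lower and 1.65% past 2-fold. The median log2 ratio was 0.02 for the members and −0.02 for all genes. The number of members called lower was near the background share and the number called higher was below it.

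Between the mimics, miR-93 EV had 1 member called higher than in miR-17 EV, Ankrd37, and 1 called lower, Slc2a6. Among 15465 genes, 1.92% were called higher, 2.15% lower and 0.33% past 2-fold, and the median log2 ratio was −0.03 for the members and 0.00 for all genes.

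**Figure D3:**
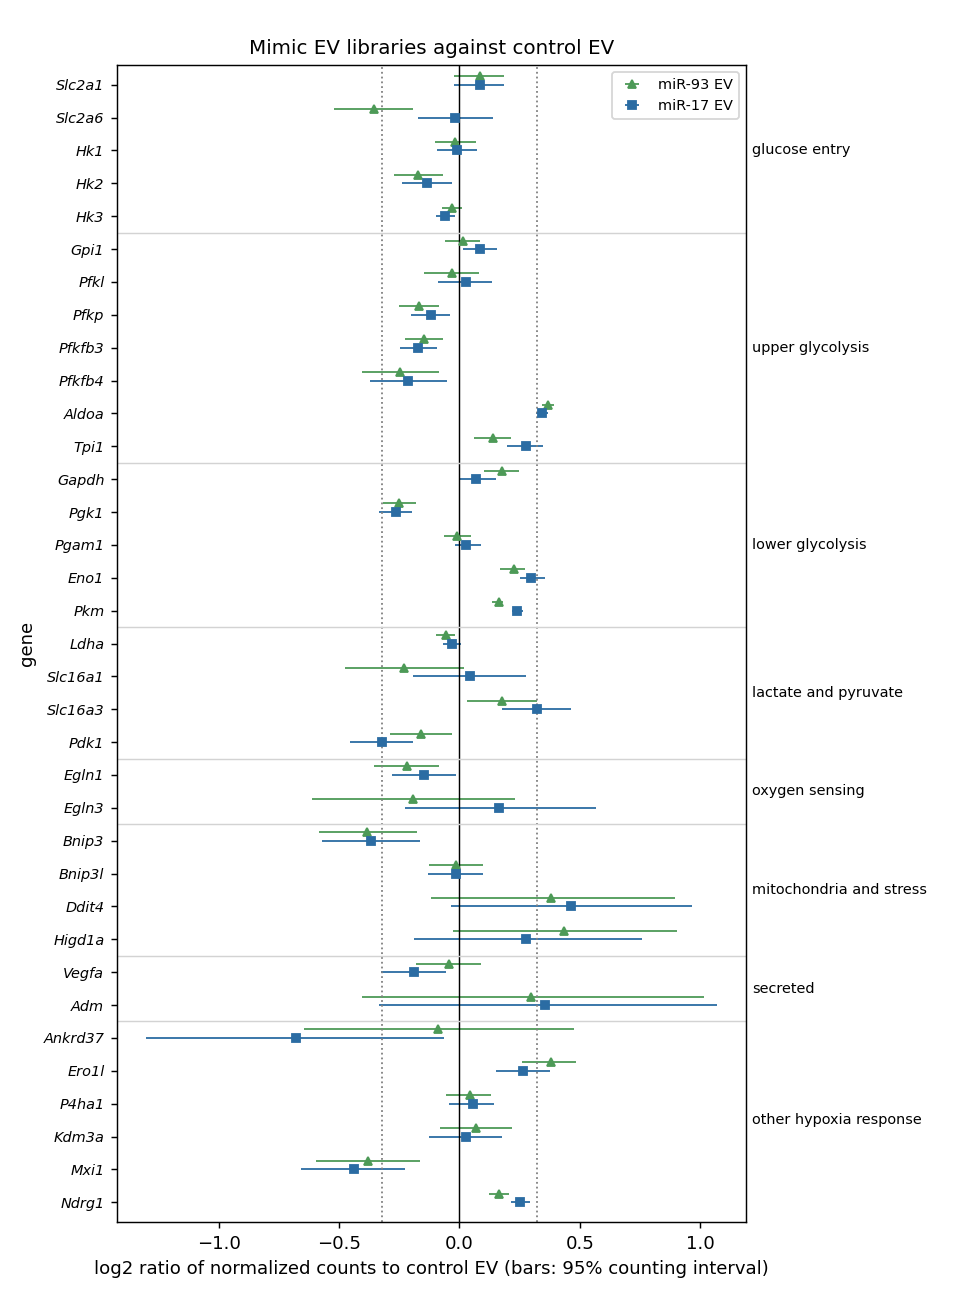
Log2 ratio of normalized counts of each gene to control EV, for miR-93 EV and miR-17 EV; bars are 95% counting intervals and the dotted lines mark 25% higher and 20% lower. Aldoa lies above the upper line for both mimics and Bnip3 and Mxi1 lie below the lower line for both, while wide bars belong to genes of few reads such as Ankrd37 and Adm.

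At the entry of glucose, the transporters and hexokinases were steady apart from Slc2a6, a glucose transporter of the lysosomal membrane (ENSMUSG00000036067, chr2:27021363-27027998). Slc2a6 had 560 normalized counts in miR-93 EV, 708 in miR-17 EV, 717 in control EV and 626 in unexposed. It was lowest in miR-93 EV, at 0.781 times control EV (interval 0.697 to 0.874) and 0.790 times miR-17 EV (0.710 to 0.879), while the difference from unexposed was not called (0.894, 0.797 to 1.002). The call of Slc2a6 against control EV was lost with scaling to total reads (log2 ratio −0.31) and with the authors' log2 values (−0.12). The authors' log2 values, but not scaling to total reads, also ended the call against miR-17 EV (−0.23). Hk3 had 9676 normalized counts in miR-93 EV, 9485 in miR-17 EV, 9875 in control EV and 10333 in unexposed, and was highest in unexposed by less than 25%. Slc2a1, the main glucose transporter of activated macrophages, varied least of the whole set, with 1649 normalized counts in miR-93 EV, 1651 in miR-17 EV, 1560 in control EV and 1551 in unexposed. Hk1 and Hk2 had log2 ratios of −0.11 to 0.06 to unexposed in the 3 exposed libraries, and none was called.

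In the upper steps of glycolysis, Aldoa was called in 3 pairs. It had 31027 normalized counts in miR-93 EV, 30551 in miR-17 EV, 24071 in control EV and 31503 in unexposed. Control EV was the low library, at 0.764 times unexposed (0.751 to 0.778), and the other 3 lay within a few percent of each other. Against control EV, Aldoa was at 1.29 times in miR-93 EV (1.27 to 1.31) and at 1.27 times in miR-17 EV (1.247 to 1.291). Aldoa's exons overlap Fam57b on the opposite strand, and whether reads were counted by strand is not given in the sources used here. The phosphofructokinases Pfkl and Pfkp, the regulatory enzymes Pfkfb3 and Pfkfb4, Gpi1, which turns glucose phosphate into fructose phosphate, and Tpi1, the triose phosphate isomerase, were not called in any pair. Pfkp, Pfkfb3 and Pfkfb4 had log2 ratios to unexposed of −0.14 to −0.08 in miR-93 EV, −0.13 to −0.03 in miR-17 EV and 0.04 to 0.11 in control EV. Tpi1 had 3034 normalized counts in miR-93 EV, 3331 in miR-17 EV, 2758 in control EV and 2878 in unexposed, and was highest in miR-17 EV.

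In the lower steps, Pgk1, the first ATP-yielding enzyme (ENSMUSG00000062070, chrX:106187100-106203699), was called in 1 pair. It had 3208 normalized counts in miR-93 EV, 3175 in miR-17 EV, 3815 in control EV and 2675 in unexposed. All exposed libraries were above unexposed, at 1.43 times in control EV (1.354 to 1.503), the largest ratio to unexposed among the 21 glycolytic members. The log2 ratios were 0.26 in miR-93 EV and 0.25 in miR-17 EV and were not called. The call did not hold when reads of its near-identical copies were added, as given further on. Pkm had 35865 normalized counts in miR-93 EV, 38028 in miR-17 EV, 32139 in control EV and 37923 in unexposed. Like Aldoa it was lowest in control EV, at 0.847 times unexposed (0.834 to 0.861), short of the threshold. Eno1, the enolase, had 6767 normalized counts in miR-93 EV, 7164 in miR-17 EV, 5804 in control EV and 6980 in unexposed, a ratio of 0.832 in control EV to unexposed (0.801 to 0.863), also not called. Pgam1 had 5394 normalized counts in miR-93 EV, 5561 in miR-17 EV, 5426 in control EV and 5109 in unexposed. Gapdh, whose product carries the oxidation step, had 3364 in miR-93 EV, 3146 in miR-17 EV, 2983 in control EV and 3400 in unexposed, and was not called. With the authors' log2 values, the ratio of control EV to unexposed passed the threshold for Gapdh (−0.44) and Eno1 (−0.43). Among the enzymes that turn glucose into pyruvate, and those that regulate the phosphofructokinase step, control EV held the lowest normalized count of Gpi1, Aldoa, Tpi1, Gapdh, Eno1 and Pkm and the highest of Hk2, Pfkp, Pfkfb3, Pfkfb4 and Pgk1. With copies added, Gpi1 was lowest in miR-93 EV.

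At the branch between lactate and mitochondria, Ldha had 10565 normalized counts in miR-93 EV, 10759 in miR-17 EV, 10996 in control EV and 11727 in unexposed. It was highest in unexposed, with ratios to it of 0.901 to 0.938 in the exposed libraries, and was not called. Pdk1, the kinase that turns off pyruvate dehydrogenase (ENSMUSG00000006494, chr2:71873224-71903858), had 969.5 normalized counts in miR-93 EV, 865 in miR-17 EV, 1083 in control EV and 920.0 in unexposed. It was lowest in miR-17 EV, called lower there than in control EV at 0.799 times (0.729 to 0.875), and its difference between control EV and unexposed (1.18, 1.07 to 1.29) was not called. The call of Pdk1 was lost with TMM scaling (log2 ratio −0.30) and with scaling to total reads (−0.27). The lactate exporter Slc16a3 had 869 normalized counts in miR-93 EV, 958 in miR-17 EV, 768 in control EV and 865 in unexposed. Its ratio of miR-17 EV to control EV, a log2 value of 0.32, came just short of the threshold. Slc16a1, a lactate transporter with fewer reads, had 261 normalized counts in miR-93 EV, 314 in miR-17 EV, 306 in control EV and 325 in unexposed and was not called.

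Among the oxygen sensors, Egln3 (ENSMUSG00000035105, chr12:54178981-54203860), a hydroxylase that hypoxia itself induces, had 93.2 normalized counts in miR-93 EV, 120 in miR-17 EV, 107 in control EV and 88.5 in unexposed. It was called higher in miR-17 EV than in unexposed, at 1.35 times with an interval of 1.02 to 1.80 that nearly reaches 1. Egln1, the main hydroxylase of Hif1a, had 850.0 normalized counts in miR-93 EV, 893 in miR-17 EV, 990 in control EV and 828 in unexposed. Its ratio of control EV to unexposed was 1.19 (1.08 to 1.32), not called.

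Among genes of mitophagy and stress, Bnip3, a receptor that marks mitochondria for autophagy (ENSMUSG00000078566, chr7:138890836-138909519), was called in 3 pairs. It had 360 normalized counts in miR-93 EV, 364 in miR-17 EV, 470 in control EV and 339 in unexposed. Control EV stood above the other 3 libraries, which lay within 25% of each other. Control EV was 1.38 times unexposed (1.19 to 1.61), and the mimics were lower than control EV at 0.767 times in miR-93 EV (0.666 to 0.884) and 0.775 times in miR-17 EV (0.674 to 0.891). With the authors' log2 values both calls of Bnip3 against control EV were lost (−0.27 in each mimic), and with total reads that of miR-17 EV (−0.31). Bnip3l, its close relative, had 1315 normalized counts in miR-93 EV, 1314 in miR-17 EV, 1329 in control EV and 1149 in unexposed. All 3 exposed libraries were above unexposed by 1.14 to 1.16 times, with intervals that exclude 1 but ratios under the threshold. Ddit4, an inhibitor of mTORC1, had 82.4 normalized counts in miR-93 EV, 87.0 in miR-17 EV, 63.2 in control EV and 67.5 in unexposed. Higd1a had 99.6 in miR-93 EV, 89.6 in miR-17 EV, 73.8 in control EV and 90.6 in unexposed. Intervals of Ddit4 and Higd1a included 1 in all 6 pairs.

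Of the secreted products, Vegfa had 935 normalized counts in miR-93 EV, 846 in miR-17 EV, 965 in control EV and 783 in unexposed. Unexposed was the low library, with control EV at 1.23 times (1.12 to 1.36) and miR-93 EV at 1.19 times (1.09 to 1.31), and neither reached the threshold. Adm had 41.6 normalized counts in miR-93 EV, 43.5 in miR-17 EV, 34.0 in control EV and 35.8 in unexposed, and its intervals included 1 in all 6 pairs.

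Of the other hypoxia response genes, Mxi1 (ENSMUSG00000025025, chr19:53310506-53375810) had 324 normalized counts in miR-93 EV, 311 in miR-17 EV, 422 in control EV and 296 in unexposed. Control EV again stood above the rest, at 1.42 times unexposed (1.22 to 1.67), and Mxi1 was lower than in control EV at 0.769 times in miR-93 EV (0.662 to 0.892) and 0.737 times in miR-17 EV (0.634 to 0.856). The call of Mxi1 in miR-93 EV was lost after correction for GC content (log2 ratio −0.29). Its 3′ UTR holds 1 of the seed matches shown above. Ndrg1, a stress-responsive gene with a high level (ENSMUSG00000005125, chr15:66929321-66969640), had 10775 normalized counts in miR-93 EV, 11482 in miR-17 EV, 9621 in control EV and 13914 in unexposed. Unexposed was the highest library for Ndrg1. The ratio to unexposed was 0.774 in miR-93 EV (0.755 to 0.794) and was 0.691 in control EV (0.673 to 0.711), both called, and 0.825 in miR-17 EV (0.805 to 0.846), not called. The call of Ndrg1 in miR-93 EV was lost after correction for GC content (log2 ratio −0.32). Ankrd37, known as a target of hypoxia-inducible factors, had 56.1 normalized counts in miR-93 EV, 37.3 in miR-17 EV, 59.7 in control EV and 45.3 in unexposed (ENSMUSG00000050914, chr8:45996902-45999867). It was low in miR-17 EV, at 0.624 times control EV (0.405 to 0.958), and miR-93 EV was at 1.51 times miR-17 EV, with an interval of 1.002 to 2.284 whose lower bound is just above 1. That call of Ankrd37 was lost with scaling to total reads (log2 ratio 0.57), and both calls of Ankrd37 fall below a minimum of 100 normalized counts. Its exons overlap Lrp2bp and Ufsp2 on the opposite strand. Ero1l, an oxidase that forms disulfide bonds in the endoplasmic reticulum (ENSMUSG00000021831, chr14:45283092-45318572), had 1582 normalized counts in miR-93 EV, 1466 in miR-17 EV, 1222 in control EV and 1369 in unexposed. It was highest in miR-93 EV, called higher there than in control EV at 1.30 times (1.20 to 1.40), a call lost after a correction for GC content, where the log2 ratio was 0.23. P4ha1, a collagen prolyl hydroxylase, and Kdm3a, a histone demethylase, were not called, with log2 ratios to unexposed of 0.05 to 0.19 over the exposed libraries.

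Against unexposed, few members passed the threshold, and the signs of the log2 ratios are given here as a description. Of the 14 hypoxia response members, 13 had a log2 ratio above 0 in miR-93 EV with a median of 0.16, the exception being Ndrg1. In miR-17 EV 11 of 14 were above 0 with a median of 0.11, and in control EV 9 of 14 with a median of 0.16. The interval excluded 1 for 5 of the 14 in miR-93 EV, 4 in miR-17 EV and 7 in control EV, each time including Ndrg1. Of the 21 glycolytic members, 6 were above 0 in miR-93 EV (median −0.08), 8 in miR-17 EV (−0.04) and 9 in control EV (−0.07). Intervals excluded 1 for 12 of these 21 in miR-93 EV, 12 in miR-17 EV and 14 in control EV. The share of all genes whose interval excluded 1 was not computed. Counting intervals are narrow for abundant genes and can exclude 1 at small differences, as for Hk3 in control EV (0.956, 0.928 to 0.984). Among all genes tested, 48.9% were above 0 in miR-93 EV, 48.1% in miR-17 EV and 50.1% in control EV. The hypoxia response members had a median GC content of 45.2%, against 50.8% for the glycolytic members. After correction for GC content the medians in miR-93 EV were 0.12, with 13 of 14 above 0, for the hypoxia response members and −0.02, with 9 of 21 above 0, for the glycolytic ones. In miR-17 EV they were 0.09, with 11 of 14 above 0, and −0.02, with 10 of 21. Without the correction, the other hypoxia response genes had 23 of 32 above 0 in miR-93 EV (median 0.08), 15 of 32 in miR-17 EV (−0.02) and 15 of 32 in control EV (−0.03). The other genes of glycolysis had 10 of 17 above 0 in miR-93 EV (0.02), 6 of 17 in miR-17 EV (−0.06) and 10 of 17 in control EV (0.10). The 3 comparisons share the unexposed library, and no test of the difference was made with 1 library per group. Against control EV, 7 of the 14 hypoxia response members were above 0 in miR-93 EV (median 0.01) and 8 of 14 in miR-17 EV (0.04). Of all genes tested, 46.6% were above 0 in miR-93 EV and 47.1% in miR-17 EV in these pairs. After correction for GC content, 5 of the 14 members were above 0 in miR-93 EV (median −0.07) and 6 of 14 in miR-17 EV (−0.05).

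Many glycolytic genes have processed pseudogenes, and how the authors' counting shared reads with them is not given in the sources used here. Of the 35 members, 11 had another annotated gene at 95% identity or more over at least 200 bases, and 16 had neither such a copy nor an exon overlap with another gene. Of the 10 called members, Slc2a6, Pdk1, Egln3 and Ero1l had neither, while exons of Bnip3, Mxi1 and Ndrg1 overlap a gene on the opposite strand. Exons of Pkm, which was not called, overlap a gene on the same strand. Gapdh had 78 annotated copies, of which 51 were in the table, and 94.2% to 94.5% of the reads of gene plus copies were counted at the copies. For Pgk1 the share was 78.1% to 82.0%, for Eno1 78.1% to 81.4%, for Higd1a 64.9% to 78.4%, for Gpi1 59.6% to 64.8% and for Pgam1 59.8% to 63.9%. It was 29.3% to 35.7% for Bnip3, 30.3% to 34.9% for Bnip3l and 3.04% to 4.44% for Ldha. Levels of these genes per length, other than Ldha's, are therefore uncertain, and so is the order of levels given above. Gapdh in particular was counted at a fraction of what its gene and copies held together. With copies, Gapdh held 54540 normalized counts in control EV to 60943 in unexposed, against 24071 to 31503 at Aldoa's own row. Levels per length were not computed for the sums.

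**Figure D4:**
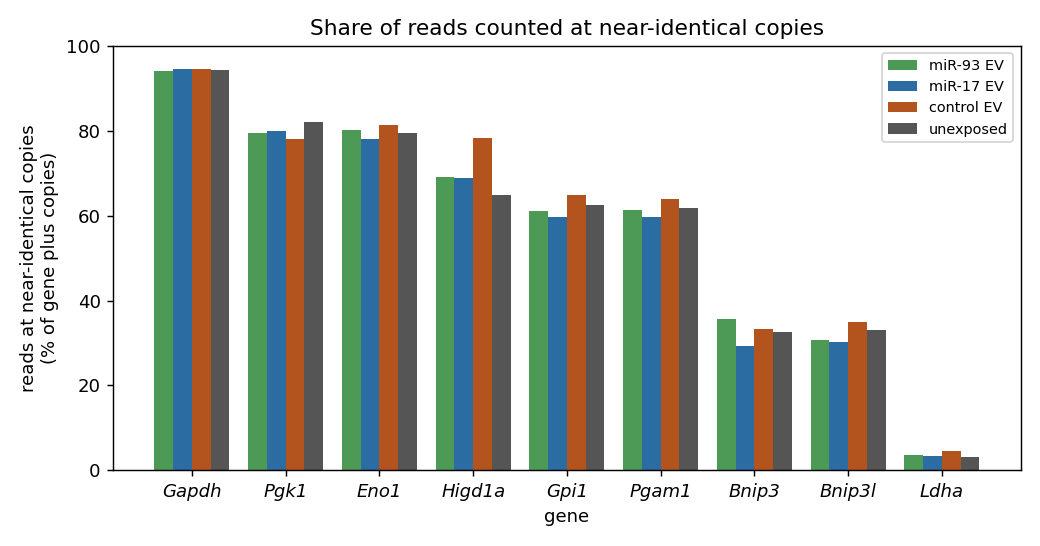
Share of reads counted at near-identical copies, in percent of the reads of gene plus copies, for the 9 members with a copy in the table; bars are the 4 libraries. Gapdh stands at 94.2% to 94.5% in all libraries, and Higd1a has the widest range, 64.9% to 78.4%.

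With reads of gene and copies added, Pgk1 was 1.17 times unexposed in control EV (1.15 to 1.20) and was no longer called. Bnip3 kept its 3 calls, at 1.40 times unexposed in control EV and at 0.797 times control EV in miR-93 EV and 0.732 times in miR-17 EV. Higd1a with its copy was called higher than unexposed in control EV (1.32, 1.11 to 1.57) and in miR-93 EV (interval 1.06 to 1.48), at log2 ratios of 0.40 and 0.32, whereas its own row gave log2 ratios of −0.29 and 0.13. The direction for Higd1a in control EV was thus opposite between the gene's own row and the sum. These sums were chosen after the shares had been seen.

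The members with a GCACTTT match in the 3′ UTR had a median log2 ratio to control EV of −0.16 in miR-93 EV, against −0.01 for the 29 members without one. In miR-17 EV the medians were −0.15 for the 6 with a match and 0.04 for the 29 without. Over all genes, those with a match had medians of −0.01 in miR-93 EV and 0.00 in miR-17 EV, and those without had −0.02 in each. Of the 6 members with a match, 1, Mxi1, was called lower than control EV in each mimic library, where 9.56% of all genes in miR-93 EV and 10.1% in miR-17 EV were called lower. Against unexposed the members with a match had medians of 0.10 in miR-93 EV, 0.03 in miR-17 EV and 0.18 in control EV. Of the 6, Pfkp, Pfkfb3, Vegfa and Mxi1 were highest in control EV, Egln3 in miR-17 EV and Higd1a in miR-93 EV. For Higd1a this and the medians rest on its own row, with log2 ratios to control EV of 0.43 in miR-93 EV and 0.28 in miR-17 EV. With its copy added, Higd1a was highest in control EV, and those log2 ratios were −0.08 and −0.24. All of these ratios rest on the same 4 libraries.

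The hypoxia-inducible factors and their regulators, from a list of 13 other genes, are the known upstream control of the set. Hif1a, the inducible alpha subunit, had 1426 normalized counts in miR-93 EV, 1403 in miR-17 EV, 1083 in control EV and 1278 in unexposed. It was lowest in control EV and was called higher than there in miR-93 EV (1.32, 1.21 to 1.43) and in miR-17 EV (1.30, 1.19 to 1.41). Over all genes, 12.2% were called higher than control EV in miR-93 EV and 11.9% in miR-17 EV. Calls of single genes in this list and in the lists below were not repeated with GC correction or other scaling. Egln2, a further prolyl hydroxylase, was called lower than unexposed in miR-93 EV (0.775) and likewise in control EV (0.795), and Cited2, which competes with Hif1a for its coactivators, in miR-93 EV (0.761). Epas1, the second inducible alpha subunit, was called lower in miR-93 EV than in control EV (0.618) and Arnt2 higher (1.55), both at under 100 normalized counts. Arnt, Hif3a, Vhl, which marks the alpha subunits for degradation, Hif1an, Siah1a, Siah2, Ep300 and Crebbp were not called in any pair. The list's medians, with the calls made against unexposed, were −0.01 in miR-93 EV (0 higher, 2 lower), −0.04 in miR-17 EV (0 and 0) and −0.06 in control EV (0 higher, 1 lower). The background in these pairs was 5.14% higher and 4.71% lower in miR-93 EV and 4.92% and 4.14% in miR-17 EV. In control EV it was 8.26% and 8.72%.

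Of 37 other hypoxia response genes, 31 or 32 were measured in a pair. Hilpda, a lipid droplet protein that hypoxia induces, was called higher than unexposed in each exposed library, with 473 normalized counts in miR-93 EV, 378 in miR-17 EV, 349 in control EV and 242 in unexposed. The ratios to unexposed were 1.95 (1.67 to 2.29) in miR-93 EV, 1.56 (1.33 to 1.84) in miR-17 EV and 1.44 (1.21 to 1.72) in control EV. None of the 35 members was called in all 3 of these pairs. Against unexposed, 3 genes of the list were called higher and 1 lower in miR-93 EV (median log2 ratio 0.08), 2 higher and 0 lower for miR-17 EV (−0.02), while control EV had 1 higher and 4 lower (−0.03). The background against unexposed was 5.14% higher and 4.71% lower in miR-93 EV and 4.92% and 4.14% in miR-17 EV. In control EV it was 8.26% and 8.72%. The 4 genes called lower in control EV were Lox (0.687), Tfrc (0.720), Mif (0.753) and Gbe1 (0.760). Against control EV, the counts were 8 higher and 1 lower in miR-93 EV (median 0.14) and 4 higher and 3 lower in miR-17 EV (0.10). After correction for GC content the medians against control EV were 0.07 in miR-93 EV and 0.13 in miR-17 EV. The background in these pairs was 12.2% higher and 9.56% lower in miR-93 EV and 11.9% higher and 10.1% lower in miR-17 EV, so the counts in miR-17 EV were near it. Tfrc, the transferrin receptor, was at 1.65 times control EV in miR-93 EV and 1.54 times in miR-17 EV, and Gbe1, the glycogen branching enzyme, at 1.54 times in miR-93 EV and 1.5 times in miR-17 EV. Plod2, a collagen hydroxylase, reached 2.02 times control EV in miR-93 EV, at 30.8 against 15.2 normalized counts and with an interval of 1.04 to 4.17.

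The other genes of glycolysis, of which 17 of 21 were measured, had 0 to 2 calls in each direction against unexposed. There, 0 were called higher and 1 lower in miR-93 EV (median log2 ratio 0.02), 1 higher and 0 lower for miR-17 EV (−0.06), while control EV had 2 higher and 0 lower (0.10). The shares of all genes called higher in these pairs were 5.14% for miR-93 EV, 4.92% for miR-17 EV and 8.26% for control EV, and those called lower 4.71% for miR-93 EV, 4.14% for miR-17 EV and 8.72% for control EV. Slc2a3, a high-affinity glucose transporter, and Aldoc, an aldolase known from the brain, were called higher in control EV than in unexposed (1.33 and 1.27), the opposite side from Aldoa. Aldoc was lower than control EV in miR-93 EV (0.666) and in miR-17 EV (0.702), and Slc2a3 (0.751) and the transporter Slc16a7 (0.745) were lower than control EV in miR-17 EV. Against control EV the list had 0 higher and 1 lower in miR-93 EV and 0 higher and 3 lower in miR-17 EV, beside backgrounds of 9.56% lower in miR-93 EV and 10.1% in miR-17 EV. Pfkfb1, which controls the same step as Pfkfb3, was higher in miR-17 EV than in unexposed at 1.56 times (1.05 to 2.35).

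At the entry of pyruvate to mitochondria, 12 of 13 genes were measured, and 3 were called higher and 1 lower than control EV in each mimic library (median log2 ratio 0.06 in miR-93 EV and 0.12 in miR-17 EV). Over all genes, 12.2% were called higher and 9.56% lower than control EV in miR-93 EV, and 11.9% and 10.1% in miR-17 EV, so 1 lower call of 12 genes is near the background. Mpc1 and Mpc2, the subunits of the pyruvate carrier, were called higher than control EV in miR-93 EV (1.26 and 1.43) and in miR-17 EV (1.29 and 1.49), and so was Dld, a subunit of pyruvate dehydrogenase (1.53 in miR-93 EV and 1.49 in miR-17 EV). Pdk2, a kinase of the same function as Pdk1, was lower than control EV in miR-93 EV (0.522) and miR-17 EV (0.568), with 48.9 normalized counts in miR-93 EV, 53.3 in miR-17 EV, 93.7 in control EV and 87.5 in unexposed. Pcx, the pyruvate carboxylase, was lower in control EV than in unexposed (0.753). In the pentose phosphate pathway, which branches from glucose phosphate and had 8 genes measured, 1 was called higher and 0 lower than control EV in miR-93 EV (median 0.06) and 2 higher and 1 lower in miR-17 EV (0.17), beside the same background. Rpe was higher than control EV in miR-93 EV (1.55) and miR-17 EV (1.44), and in miR-17 EV G6pdx, the entry enzyme of the pathway, was also higher (log2 ratio 0.33) and Rpia lower (−0.36). Lox, Mif and Mpc1 fall outside the rule for naming genes and were chosen after their values were seen.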

How the data were processed

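RNA was measured in 4 libraries, 1 per group, each from the pooled RNA of 4 biological replicates and prepared by Ion Total RNA-Seq Kit v2 chemistry, as the labels' protocols state. Per the file headers, the deposited raw table gives counts of reads for 38087 genes as whole numbers with no normalization. It also gives, as deposited, average coverage per base, a signal used only for aligned bases per read, and GC content in percent. The authors' deposited log2 values, centred per gene, served as an alternative. The submitters' processing notes name mm10 and DESeq. For the aligner, the annotation, strand and the treatment of reads with several matches, details were not given in the sources used here. Gene lengths in the deposited table are whole gene spans, so whether reads in introns were counted is unknown. In the authors' deposited tables of genes past 2-fold, 0 of the 35 members were among 5721 genes.

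Counts were scaled by median-of-ratios size factors (NumPy 2.4.6 and pandas 2.3.3 in Python 3.11.15), and a log2 ratio is that of normalized count plus 1. Ratios have 95% exact conditional intervals (SciPy 1.17.1). TMM factors came from edgeR 4.0.16 in R 4.3.3. Calls needed a ratio at least 25% above or 20% below 1, an average of 20 normalized counts or more and an interval excluding 1. With the authors' log2 values no interval was required. No test between conditions was made. GC correction subtracted the median log2 ratio of genes in 20 bins of GC content. Exon lengths, copies and 3′ UTRs came from GENCODE M21, whose IDs matched 95.3% of the genes.

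Values in each library were planned for members called in at least 1 of the 6 pairs and the 5 with the highest level per length. Outside that rule they were also given for Slc2a1, Tpi1, Gapdh, Eno1, Slc16a1, Slc16a3, Egln1, Bnip3l, Ddit4, Higd1a, Vegfa and Adm. The remaining members were described by role. Up to 4 called genes per further list were named, and the hypoxia-inducible factor list in full. The members, lists and rules were chosen with earlier results of these data known, and the roles after the files had been seen.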

Additional observations from a re-analysis of the deposited data

How the results depend on the processing

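With 1 library per group there was no replicate to leave out. No paired analysis was possible because each group was 1 library. Counting intervals are narrow for abundant genes, so most calls turn on the size of the ratio, and under about 100 normalized counts (Egln3, Ankrd37, Ddit4, Higd1a and Adm) on depth. Of 174 alternative values of the counts and medians, 130 stayed close and 44 did not. A count was close where it was within 1.5 times the reported count (0 only with 0), and a median where it lay within the 95% order-statistic interval of the reported median over the members. No called value changed sign, and the members' median in each of the 6 pairs stayed close under each alternative. The interval of the median reflects the spread among members and not between libraries, so staying within it says little about robustness. The 44 values that did not stay close were all counts of calls. The cause was not tested unless the alternative itself removes genes or raises the threshold.

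At 2-fold, 0 members were called in any pair. At 1.5-fold, Ankrd37 was the 1 call lower in miR-17 EV than in control EV and the 1 call higher in miR-93 EV than in miR-17 EV, with 0 elsewhere. Among the 16 members without copies or overlaps, 1 was called higher and 1 lower in miR-93 EV against control EV, 0 higher and 1 lower in miR-17 EV against control EV, 0 higher in miR-93 EV against miR-17 EV, 0 lower in miR-93 EV against unexposed, and for control EV against unexposed 0 in each direction. Calls with the authors' log2 values rested on the size of the ratio and the minimum of normalized counts. For them an interval excluding 1 was not required, a looser rule than that of the reported calls. The share of all genes called under this looser rule was not computed, and the background shares given above do not apply to it. The counts that follow for the authors' values therefore cannot be set against a background. With the authors' log2 values, there was 1 higher call for miR-93 EV, 2 for miR-17 EV and 7 for control EV against unexposed. Against control EV, higher calls with these values were 6 for miR-93 EV and 7 for miR-17 EV. Lower calls with them were 1 for miR-17 EV and 5 for control EV against unexposed, and 2 for miR-93 EV against miR-17 EV. In miR-17 EV against control EV, higher calls were 3 with TMM, 5 with scaling to total reads and 4 with GC correction, and lower calls 2 with total reads. GC correction gave 1 higher call in miR-93 EV against control EV and 1 against unexposed. In miR-93 EV against miR-17 EV, higher calls were 0 with total reads or a minimum of 100 normalized counts. Sums with copies, chosen after seeing the data, gave 1 higher call in miR-93 EV against unexposed. Of the 19 calls, 18 were kept with TMM, 15 with total reads, 16 with GC correction and 15 with the authors' log2 values. With the stricter minimum 17 were kept, and with no minimum or a pseudocount of 10 all 19. Calls gained were 2 with TMM, 5 with total reads, 6 with GC correction and 23 with the authors' log2 values. Those gained with the authors' values in control EV against unexposed were Pfkl (−0.39), Gapdh (−0.44) and Eno1 (−0.43) as lower. As higher they were Pdk1 (0.34), Egln3 (0.52), Bnip3l (0.34) and Ankrd37 (0.35). The counting intervals of Egln3 (0.885 to 1.64) and Ankrd37 (0.861 to 2.03) in that pair included 1.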
